A study of Mus musculus with 4 samples.

Results

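Histone acetyltransferases that act in the nucleus and the somatic BET proteins that read the acetylated lysines were examined as 7 genes of the 28250 in the deposited tables. Ep300, Crebbp, Kat2a, Kat2b, Kat5, Brd2 and Brd3 were selected by symbol, and each symbol occurred once. RNA-seq values came from 4 libraries of TBV2 mouse embryonic stem cells (ESC), a feeder-dependent line kept with LIF, and the groups differed only in what was added for 24 h. Cells of 2 libraries received solvent (replicates 1 and 2), and cells of 2 libraries received 5 µM MS-275 (replicates 1 and 2), an inhibitor of class I histone deacetylases. No source used here says whether the replicates came from separate cultures, so the p-values measure only the spread between these libraries, which may be technical. On mm9 the GENCODE M1 annotation places Ep300 at chr15:81415781-81482507, Crebbp at chr16:4084048-4213404, Kat2a at chr11:100566060-100573779, Kat2b at chr17:53706186-53812045, Kat5 at chr19:5603017-5610050, Brd2 at chr17:34248965-34259262 and Brd3 at chr2:27301099-27363182. All 7 genes passed the filter on low values, as did 20336 genes in all.

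Acetyl groups on histone lysines are added by acetyltransferases, removed by deacetylases and bound by bromodomains. Ep300 (p300) and Crebbp (CBP) are paralogous coactivators that acetylate histone H3 at enhancers and promoters. Kat2a (GCN5) and Kat2b (PCAF) are alternative catalytic subunits of the SAGA and ATAC coactivator complexes, and Kat5 (TIP60) is the catalytic subunit of the NuA4/TIP60 complex, which acetylates histones H4 and H2A. Brd2 and Brd3 belong to the BET family, whose paired bromodomains bind acetylated histone tails and whose extraterminal domain recruits other proteins. A deacetylase inhibitor acts on the opposite arm of this cycle, so the comparison asks what happened to the transcripts of the enzymes that write the mark and of the proteins that read it.

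The members form 3 paralogous pairs and Kat5. The longest identical run between the coding sequences of each pair shows whether the alignments, each 35 bases long, could be assigned to 1 gene of the pair. Coding sequences of GENCODE M1 transcripts on mm9 were identical at 75.3% of the aligned bases between Ep300 and Crebbp, at 73.7% between Kat2a and Kat2b and at 75.0% between Brd2 and Brd3. The longest run without a difference was 29 bases for Ep300 and Crebbp, 19 for Kat2a and Kat2b and 20 for Brd2 and Brd3, each shorter than an alignment. The stretch around that run, within 1 coding exon of both genes, is written 5′ to 3′ on the coding strand, with the bases that differ between the 2 genes in capitals.
Ep300: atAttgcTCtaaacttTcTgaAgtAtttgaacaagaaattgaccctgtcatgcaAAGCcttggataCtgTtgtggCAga
Crebbp: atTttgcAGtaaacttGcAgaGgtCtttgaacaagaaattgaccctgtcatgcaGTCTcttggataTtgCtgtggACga
Kat2a: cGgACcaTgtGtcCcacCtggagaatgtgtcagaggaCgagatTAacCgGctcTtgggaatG
Kat2b: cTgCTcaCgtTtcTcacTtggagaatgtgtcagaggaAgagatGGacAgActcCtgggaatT
Brd2: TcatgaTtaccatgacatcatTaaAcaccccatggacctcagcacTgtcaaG
Brd3: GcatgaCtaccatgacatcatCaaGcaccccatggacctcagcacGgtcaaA

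These stretches lie in exon 18 of Ep300 (chr15:81462202-81462280, plus strand), exon 18 of Crebbp (chr16:4108039-4108117, minus strand), exon 3 of Kat2a (chr11:100572731-100572792, minus strand), exon 3 of Kat2b (chr17:53763677-53763738, plus strand), exon 7 of Brd2 (chr17:34251835-34251886, minus strand) and exon 6 of Brd3 (chr2:27314977-27315028, minus strand), all on mm9. They differed at 15 of 79 bases, at 14 of 62 bases and at 6 of 52 bases. Over the whole transcripts, no window of 35 bases of Kat2a, Kat2b, Kat5, Brd2 or Brd3 occurred in the same direction in a protein-coding transcript of another gene. Such windows made up 0.0445% of Ep300 and 0.146% of Crebbp. The reverse complement was not searched, and part of the Kat5 exons overlaps Rnaseh2c on the opposite strand, as given below.

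The deposited value is a normalized expression signal, on a linear scale and per gene, and not a read count. The 4 libraries held between 9785619 and 23467935 alignments, and their values summed to between 2490 and 4359. Replicate number marked a large difference between libraries, since in the alignments of replicate 1 of each group 53.2% and 54.4% repeated a position already seen and in those of replicate 2 none did. In a correlation over genes, not independent replicates, the values tracked alignments per exon length more closely from the other replicate of the same group (r = 0.910 to 0.942) than from the same library (0.798 to 0.850). An exchange of the alignment files within both groups would leave each comparison of the groups as it is, and replicate numbers below are those of the labels. The groups were compared with limma on log2(value + 0.005), with Benjamini-Hochberg adjustment over the 20336 genes. The same fit with the replicate number as a block is given where it changes a call. Over the genes tested, the median of the log2 fold changes was 0.20. It became 0.03 once the libraries were scaled by median ratios and -0.03 after quantile normalization, so changes are also given relative to that median.

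Kat2b fell with MS-275 in the fit with the replicate block, the one member to do so on the deposited scale. Its value was 0.168 and 0.119 in solvent replicates 1 and 2 and 0.0866 and 0.0226 in MS-275 replicates 1 and 2, so both treated libraries lay below both solvent libraries. The means were 0.144 ± 0.0342 (SD, n = 2) and 0.0546 ± 0.0452 (SD, n = 2). Among all genes tested, Kat2b moved from percentiles 72.5 and 71.0 of the values in solvent to 57.0 and 40.7 with MS-275. The log2 fold change was -1.54, a 2.91-fold lower level on the log2(value + 0.005) scale, and 0.924% of the genes tested had a change as low or lower. Without the block its adjusted p was 0.212 (limma, 95% confidence interval of the log2 fold change -2.86 to -0.22), and with the block it was 0.000928 (interval -2.15 to -0.94). Without MS-275 replicate 2, the lowest library, the log2 fold change was -0.68 (adjusted p = 0.807), and without MS-275 replicate 1 it was -2.41 (adjusted p = 0.0204, limma).

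Kat2a, the paralogue of Kat2b, had values of 0.265 and 0.271 in solvent and of 0.216 and 0.285 with MS-275. The treated libraries lay on either side of the solvent libraries. Its log2 fold change was -0.11, with an interval of -0.98 to 0.76 without the block and -0.59 to 0.37 with it (adjusted p = 0.950 and 0.752, limma). The ratio of the Kat2b value to the Kat2a value was 0.633 and 0.440 in solvent and 0.401 and 0.0795 with MS-275. Both treated ratios were the lower ones, 2.95-fold lower on average, with a two-sided exact permutation p of 0.333, which is the smallest that 2 libraries against 2 can give, and an adjusted p of 1 over the 3 paralogous pairs compared. The summed value of the 2 genes was 0.433 and 0.391 in solvent and 0.302 and 0.307 with MS-275.

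**Figure D1:**
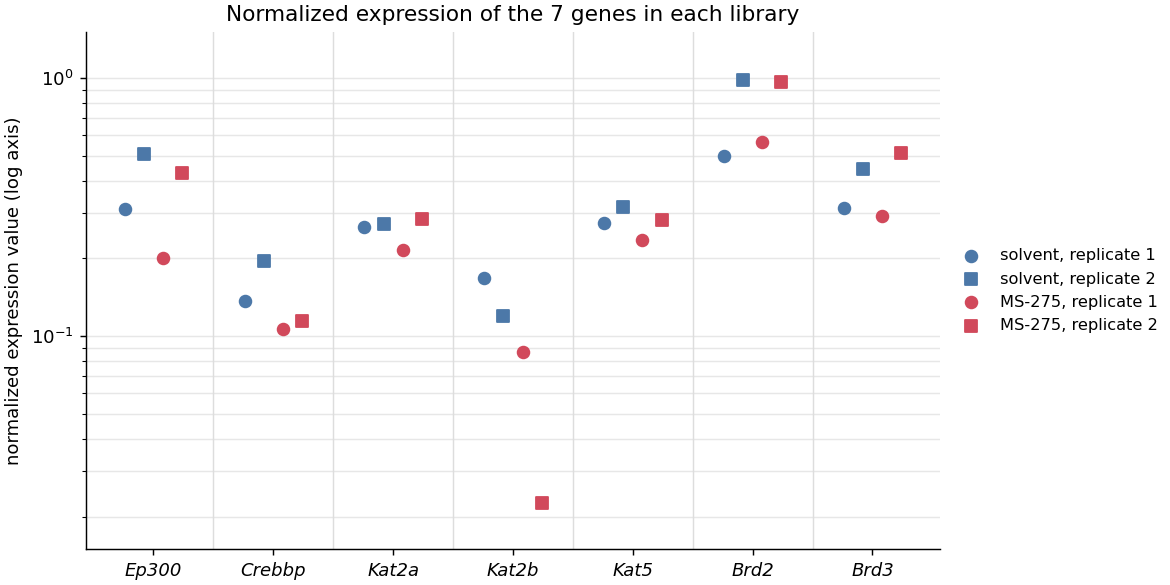
Normalized expression value (log axis) of the 7 genes in each library, with solvent in blue, MS-275 in red, replicate 1 as circles and replicate 2 as squares. Kat2b spans 0.0226 to 0.168 with the treated libraries lowest, Crebbp separates the groups by less, and for the other 5 genes the groups overlap.

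The 2 coactivator paralogues Ep300 and Crebbp both had lower values with MS-275 in each replicate pair, as did 26.5% of the genes tested. Neither passed the threshold with or without the block. The value of Ep300 was 0.311 and 0.508 in solvent and 0.201 and 0.427 with MS-275. The treated library of replicate 2 lay above the solvent library of replicate 1, so the groups overlapped. The log2 fold change was -0.43 (adjusted p = 0.783 without the block and 0.185 with it, limma). The interval was -1.56 to 0.70 without the block and -0.93 to 0.06 with it. The value of Crebbp was 0.136 and 0.196 in solvent and 0.106 and 0.115 with MS-275. Both treated libraries were below both solvent libraries. The log2 fold change was -0.54 (adjusted p = 0.567 without the block and 0.0855 with it, limma). The interval was -1.41 to 0.32 without the block and -1.02 to -0.07 with it. With the block, both genes passed on values scaled by median ratios (log2 fold change -0.66 for Ep300 and -0.77 for Crebbp) and on quantile-normalized values (-0.53 and -0.61). The ratio of Crebbp to Ep300 was 0.438 and 0.385 in solvent and 0.529 and 0.269 with MS-275, with overlapping groups (two-sided exact permutation p = 1).

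Kat5 had values of 0.274 and 0.315 in solvent and of 0.236 and 0.282 with MS-275, a log2 fold change of -0.18 with an interval of -1.06 to 0.69 without the block and -0.65 to 0.29 with it. The treated library was the lower one in both pairs, and the groups overlapped. On these values Kat5 did not pass without the block or with it (adjusted p = 0.905 and 0.582, limma). In introns it was called lower with the block, as given below. Of its annotated exon length on mm9, 17.9% is shared with exons of Rnaseh2c on the opposite strand, and the libraries did not keep strand, so alignments on that part cannot be told apart between the 2 genes.

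The somatic BET genes stayed within the spread of the replicates. The value of Brd2, the highest of the 7 genes, was 0.497 and 0.983 in solvent and 0.563 and 0.963 with MS-275. Replicate 1 was near 0.5 and replicate 2 near 1 in both groups. Brd3 had values of 0.314 and 0.442 in solvent and of 0.291 and 0.512 with MS-275, again with the larger difference between replicates. The log2 fold changes were 0.07 for Brd2 and 0.05 for Brd3. Without the block the intervals ran from -1.40 to 1.55 for Brd2 and from -1.02 to 1.12 for Brd3. With the block they ran from -0.51 to 0.66 and from -0.45 to 0.55. Changes within these intervals, in either direction, were not excluded. The sign of both log2 fold changes depended on the scaling, since after median-ratio scaling they were -0.16 for Brd2 and -0.18 for Brd3. The ratio of Brd3 to Brd2 was 0.633 and 0.450 in solvent and 0.517 and 0.532 with MS-275 (two-sided exact permutation p = 1).

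**Figure D2:**
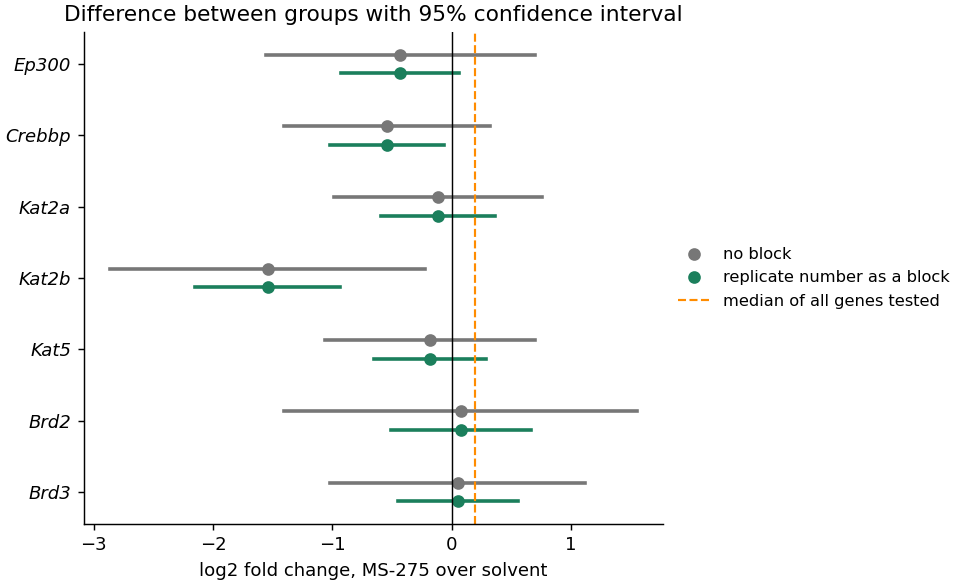
Log2 fold change of MS-275 over solvent for each gene with its 95% confidence interval, without a block (grey) and with the replicate number as a block (green), beside 0 (black line) and the median of all genes tested (dashed line, 0.20). All 7 points lie below that median on the deposited scale (5 of 7 after quantile normalization), and the intervals of Kat2b lie below 0 in both fits.

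Counted over the 7 genes, none passed an adjusted p of 0.05 without the block, where 0.00492% of all genes tested were called in either direction (limma). At an unadjusted p under 0.05 in that fit, 1 of the 7 was lower and none higher, against 564 lower and 2974 higher of the 20336 genes. With the block, Kat2b passed as lower and none passed as higher, where 6.46% of the genes tested were called lower and 21.0% higher. After median-ratio scaling 3 members were called lower with the block (Kat2b, Crebbp and Ep300), where 11.4% of the genes were, and the same 3 after quantile normalization, where 14.6% were. Both treated values lay below both solvent values for 2 of the 7 members (Kat2b and Crebbp), a pattern found for 12.0% of the genes tested. The reverse pattern was found for none of them and for 32.3% of the genes. Values were lower with MS-275 in both replicate pairs for 4 of the 7 (Ep300, Crebbp, Kat2b and Kat5) and for 26.5% of the genes tested. The median log2 fold change of the 7 genes was -0.18, against 0.20 for all genes tested, and all 7 lay below that value on the deposited scale. All 7 also lay below the median of all genes after median-ratio scaling, and 5 of the 7 did after quantile normalization, with Brd2 and Brd3 above it.

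The level of the 7 genes had an order that was partly resolved. By the mean of the 4 libraries the values ran from 0.751 for Brd2 through 0.390 for Brd3, 0.362 for Ep300, 0.277 for Kat5, 0.259 for Kat2a and 0.138 for Crebbp to 0.0991 for Kat2b. Brd2 was above Brd3 and Kat2a above Crebbp in all 4 libraries. Each of the other neighbours in this order changed places in 1 library, so their order was not beyond the spread. Across genes, log2 values fell with log2 exon length at equal numbers of alignments (slopes of -0.75 to -0.71 with the alignments of the other replicate, and of -1.22 to -0.24 with those of the same library). How fully the values are scaled by length was thus not settled, and the order between genes is that of the deposited values. Within the KAT2 pair Kat2a was above Kat2b in all 4 libraries.

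The alignments gave a second measure of the same RNA. Exons of Kat2b carried 1237 and 664 alignments in solvent replicates 1 and 2 and 192 and 322 with MS-275. Per 1000000 alignments these were 52.7 and 67.9 in solvent and 9.60 and 29.5 with MS-275, so the treated libraries were again lowest. At distinct positions there were 709 and 664 in solvent and 127 and 322 with MS-275. A limma-voom fit on distinct positions over 17944 genes called Kat2b lower without the block (log2 fold change -1.65, adjusted p = 0.0109), where 4.74% of the genes were called lower. In this fit with the block, Kat2a (-0.42), Crebbp (-0.56) and Ep300 (-0.48) were also called lower, where 13.1% of the genes were. Kat2b alignments were lower in both pairs over the introns too. There were 550 and 370 in solvent and 116 and 107 with MS-275, which is 23.4 and 37.8 per 1000000 alignments against 5.80 and 9.80. A fit on distinct positions in introns, chosen after seeing the data, called Kat2b lower without the block (log2 fold change -1.89, adjusted p = 0.00743, limma-voom), where 2.78% of 14980 genes were called lower. The block added Crebbp (-0.81), Kat5 (-0.72) and Ep300 (-0.55) to the members called lower in introns, where 2011 of 14980 genes were. Kat2a (-0.70), Brd2 (0.49) and Brd3 (-0.21) were not called in that fit. The intronic and exonic values lay side by side, and no test of a difference between them was made.

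**Figure D3:**
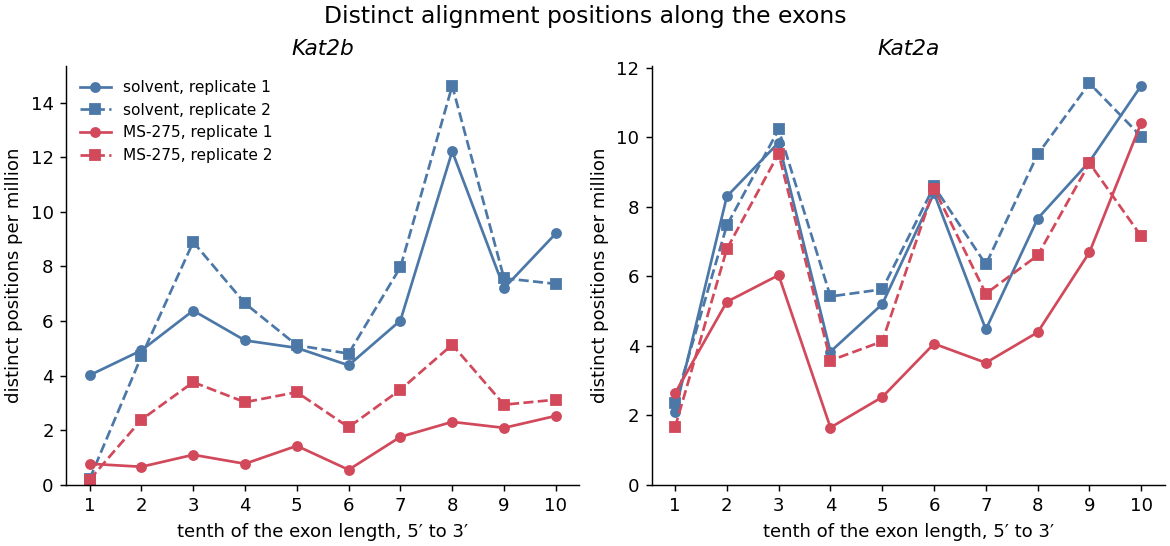
Distinct alignment positions per 1000000 on 10 successive equal parts of the exon length, 5′ to 3′, for Kat2b (left) and Kat2a (right) in each library. For Kat2b the 2 treated libraries lie below the 2 solvent libraries from the second part to the last, while for Kat2a treated replicate 2 (dashed red) runs close to the solvent libraries.

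Exonic alignments of the other members were lower in treated libraries of both pairs for the acetyltransferases and close to even for the BET genes. The log2 ratio of alignments per 1000000 was -0.96 and -0.25 for Ep300, -1.38 and -0.05 for Crebbp, -0.69 and -0.30 for Kat2a and -0.42 and -0.18 for Kat5 in pairs 1 and 2. For Brd2 it was 0.22 and 0.18, and for Brd3 -0.07 and 0.01. The depth behind these ratios was at least 454 exonic alignments in each library for each of these 6 genes. Between 71.1% and 86.4% of the Brd2 and Brd3 alignments lay nearer the 3′ end than the 5′ end of the exons, against 51.1% to 54.4% for Crebbp.

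The windows of 250 bases before the RefSeq transcription starts (GRCm38.p6) differed in base composition among the members. Their GC content ran from 40.8% at the first Kat2b start, percentile 13.7 among all RefSeq windows of this length, and 48.8% at the Kat2a start to 84% at the Crebbp start, percentile 99.8. It was 73.2% for both Ep300 and Brd3.

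Brdt, the testis-specific BET protein of spermatogenesis, rose with MS-275 in the fit with the block. It was read from a list of BET partners and is not 1 of the 7 genes. Its value was 0.0302 and 0.0238 in solvent and 0.227 and 0.221 with MS-275, with both treated libraries far above both solvent libraries. The log2 fold change was 2.84 (adjusted p = 0.0581 without the block and 1.72e-06 with it, limma). It stayed between 2.70 and 2.99 with each library left out in turn and passed the threshold in each of those 4 fits. Exons of Brdt carried 187 and 113 alignments in solvent and 1309 and 942 with MS-275.

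**Figure D4:**
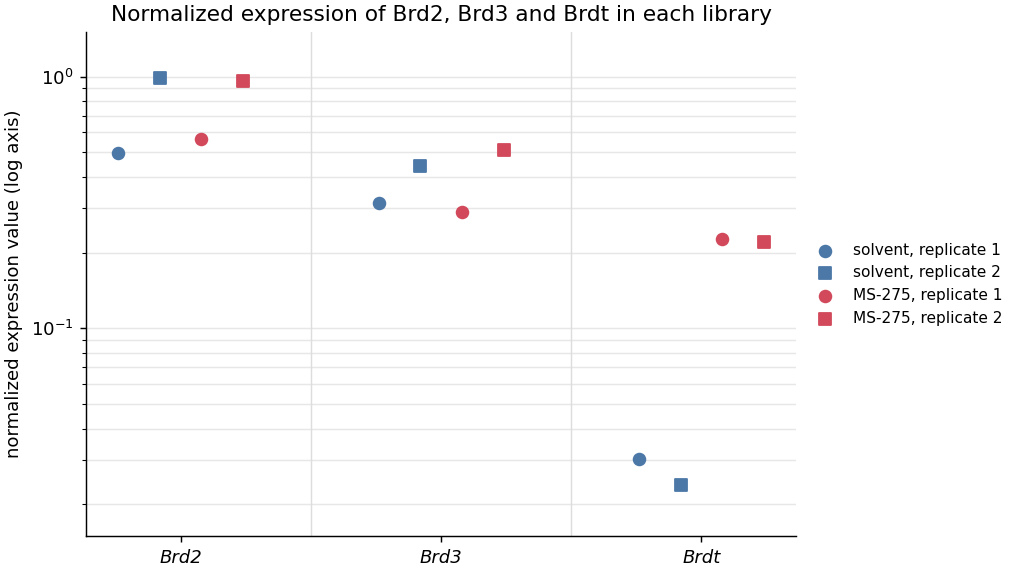
Normalized expression value (log axis) of Brd2, Brd3 and Brdt in each library. Brdt lies between 0.0238 and 0.0302 in solvent and between 0.221 and 0.227 with MS-275, while the groups overlap for Brd2 and Brd3.

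Genes that work with the members were read from lists, none of which held a gene called without the block. Of all genes tested, 21.0% were called higher and 6.46% lower with the block. Median-ratio scaling with the block gave 3346 higher and 2313 lower of 20283 genes, and quantile normalization gave 2936 and 2961 of 20336. Of 15 BET partners and P-TEFb genes, 2 rose and 2 fell with the block (median log2 fold change -0.06). Hexim1, the inhibitor of P-TEFb, rose from 0.229 and 0.295 to 0.405 and 0.918 (log2 fold change 1.22, adjusted p = 0.00246 with the block and 0.263 without, limma). Without MS-275 replicate 2 its log2 fold change was 0.63. Ccnt2, a cyclin of P-TEFb, fell from 0.565 and 0.675 to 0.411 and 0.330, and Atad5, a replication factor that binds BET proteins, from 0.330 and 0.243 to 0.231 and 0.145. Both passed narrowly with the block (adjusted p = 0.0419 and 0.0473) and not without it (0.516 and 0.528, limma). Ccnt2 passed in 7 of 10 fits with the block. Of 16 partners of CBP and p300, 3 rose and 1 fell (median -0.04), against 2 and 5 after median-ratio scaling and 3 and 6 after quantile normalization. On the deposited scale these were 18.75% and 6.25% of the list, near the shares over all genes. The 3 that rose were Cited1, Cited2 and Cited4, small proteins that bind the CH1 domain of both coactivators. Cited4 had 0.00082 and 0.00271 in solvent and 0.0367 and 0.0437 with MS-275 (log2 fold change 2.75, adjusted p = 1.35e-05 with the block and 0.0612 without, limma). The solvent values were near the pseudocount, and over the alternatives without a block the log2 fold change ran from 1.47 to 4.60 in the same direction. Trp53, the tumour suppressor that both coactivators acetylate, fell from 0.528 and 1.16 to 0.371 and 0.449 (log2 fold change -0.93, and -0.37 without solvent replicate 2 or -1.50 without solvent replicate 1).

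The complexes that hold the acetyltransferases were read in the same way, with the median of all genes at 0.20 and 21.0% of all genes called higher and 6.46% lower with the block. After median-ratio scaling 11.4% of all genes were called lower with the block, and after quantile normalization 14.6%. Of 26 SAGA and ATAC subunits, 2 rose (Taf9b and Sf3b5) and 1 fell with the block, with a median of 0.12 (1 and 1 on values scaled by median ratios, 4 and 1 on quantile-normalized values). The one that fell was Taf5l, a core subunit of SAGA, from 0.227 and 0.220 to 0.163 and 0.0964 (log2 fold change -0.81, adjusted p = 0.0174 with the block, limma), and without MS-275 replicate 2 its log2 fold change was -0.45. Of 17 NuA4/TIP60 subunits, none rose and 3 fell (Brd8, Morf4l1 and Ruvbl1), with a median of -0.16. With the block, 6 were lower and none higher after median-ratio scaling, and 6 lower and 1 higher after quantile normalization. Brd8, the bromodomain subunit of that complex, fell from 0.455 and 0.528 to 0.289 and 0.167 (log2 fold change -1.14, adjusted p = 0.00412 with the block, limma), and without MS-275 replicate 2 its log2 fold change was -0.75. Of 15 subunits of the MYST scaffolds and the MSL and NSL complexes, 6 fell and none rose with the block, and the median was -0.58. They were Brpf3, Jade2, Ing5, Kansl1, Phf20 and Hcfc1. Brpf3, 1 of the scaffolds of KAT6 and KAT7 acetyltransferases, fell from 0.189 and 0.358 to 0.0774 and 0.0540 (log2 fold change -1.93, adjusted p = 0.000133 with the block and 0.0713 without, limma). In the same list Brd1 (log2 fold change 0.66), Jade3 (0.39), Brpf1 (-0.18) and Jade1 (-0.53) were not called with the block. With the block, median-ratio scaling gave 8 genes of this list as lower and none as higher, and quantile normalization gave 9 as lower and 1 as higher.

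Other enzymes and readers moved in both directions. Of 19 other acetyltransferases, 2 rose (Atf2 and Atat1) and 2 fell (Nat10 and Mcm3ap) with the block, with a median of -0.27. This balance depended on the scaling, with none higher and 7 lower after median-ratio scaling and 1 higher and 7 lower after quantile normalization. Of 32 other readers of acetyl-lysine, 3 rose and 4 fell, with a median of -0.18, against 3 and 9 after median-ratio scaling and 4 and 8 after quantile normalization. Zmynd11, counted in this list although it is a reader of histone H3.3 trimethylated at lysine 36, fell from 0.188 and 0.143 to 0.0747 and 0.0333 (log2 fold change -1.61, adjusted p = 0.000207 with the block, limma). Smarca2, the BRM ATPase of SWI/SNF, rose from 0.0196 and 0.0149 to 0.0546 and 0.0572, and Dpf1, a neuronal subunit of the same complex, from 0.0371 and 0.0281 to 0.0852 and 0.0845. Of the 4 class I deacetylases, 1 was called with the block, Hdac1, whose values were 0.0311 and 0.165 in solvent and 0.0423 and 0.360 with MS-275. Hdac1 passed in 7 of 10 fits with the block, where its log2 fold change ran from 0.41 to 1.27, but not after either scaling. Its log2 fold change of 0.75 became -0.37 without solvent replicate 1 and 1.86 without solvent replicate 2. It became 2.22 without MS-275 replicate 1 and -0.73 without MS-275 replicate 2. Of the 31 genes called with the block in these lists, 21 had a log2 fold change that moved by over 1.5 times when 1 library was left out, 16 of them without MS-275 replicate 2, and 2 (Hdac1 and Morf4l1) turned sign.

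**Figure D5:**
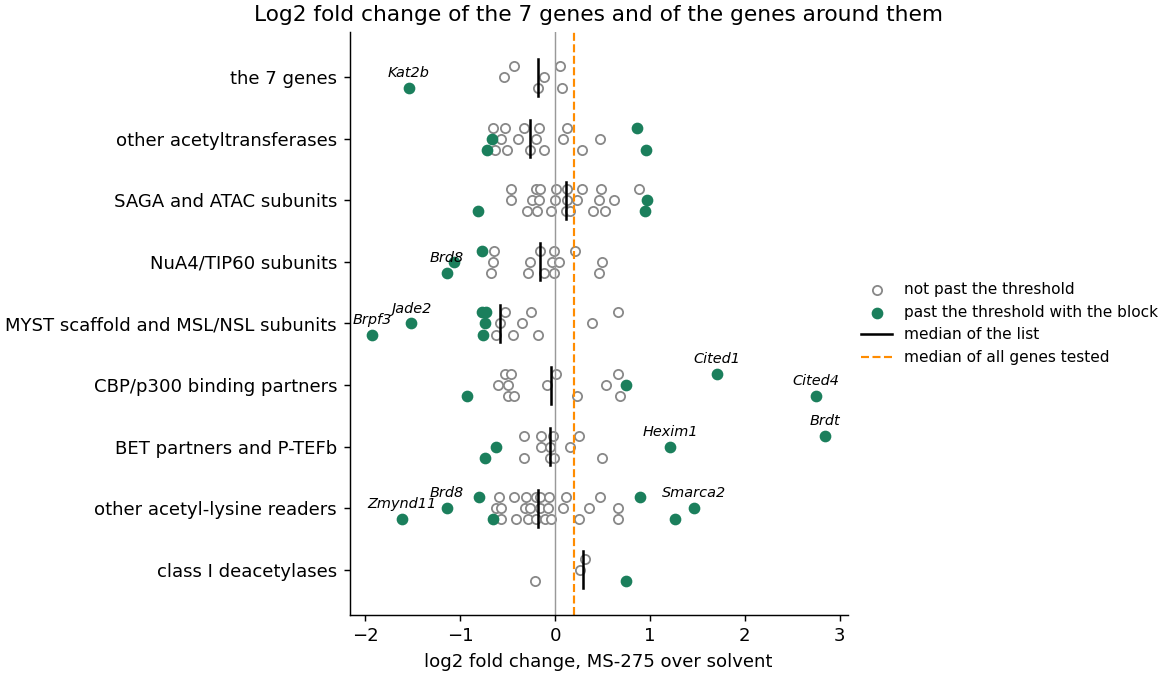
Log2 fold change of MS-275 over solvent for the genes of each list (1 point a gene), filled where the adjusted p was under 0.05 with the replicate block, with each list's median (black bar) and the median of all genes tested (dashed line, 0.20). Kat2b lies at -1.54 among the 7 genes, Brdt at 2.84 and Cited4 at 2.75 at the upper end, and Brpf3 at -1.93 at the lower end.

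Markers of the cells were measured beside these results. All 10 pluripotency genes of a list were detected in every library, so the defining markers of the labelled cells were present. All 10 were lower with MS-275 in both pairs, against 26.5% of the genes tested, though Dppa5a was nearly even in pair 1 (log2 fold change -0.0017). Of the 10, 4 were past the threshold with the block (Pou5f1, Esrrb, Utf1 and Tcl1), where 6.46% of all genes were called lower and 21.0% higher. Of 12 fibroblast genes, markers of the feeder cells the line is kept on, 6 rose with the block, with none at 0 in any library and Lum below 0.001 in 1. That direction depended on the scaling, since with the block 5 were higher and 2 lower after median-ratio scaling and 3 higher and 3 lower after quantile normalization. Over all genes, these 2 fits gave 3346 higher and 2313 lower of 20283, and 2936 higher and 2961 lower of 20336. The summed level of these 12 genes was 1.59 and 2.88 in solvent and 1.74 and 2.51 with MS-275. Fn1 (0.872 and 1.73 in solvent, 0.709 and 0.794 with MS-275) and Vim had the highest values in every library, so the sum mostly follows them. Of the 12, 8 were higher in both pairs, among them Col1a1 (0.0146 and 0.0101 in solvent, 0.0681 and 0.110 with MS-275). In both pairs 3 were lower (Col3a1, Fn1 and Dcn). In bulk RNA, fewer cells of a type and less RNA per cell cannot be told apart, and the part of either marker list in the change of Kat2b was not tested.

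The genes with the profile nearest to each member over the 4 libraries were read by the root mean square difference of centred log2(value + 0.005), among 10096 genes of mean value at least 0.05. For Kat2b they were Tacc2, a centrosomal protein (difference 0.0812), and Fgf4, the growth factor of the early epiblast (0.0846). The value of Fgf4 was 0.573 and 0.397 in solvent and 0.269 and 0.0922 with MS-275. For Crebbp they were Prc1 and Usp14, for Ep300 5430416N02Rik and Dnajb6, for Kat2a Stk11 and Ccdc136, for Kat5 Mrpl40 and Srrt, for Brd2 Rnf7 and Snx22, and for Brd3 Ssr1 and Pdcd10. These lie closer to their member, at 0.0107 to 0.0466, than the genes nearest to Kat2b. With 4 libraries a near profile is a description of these values.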

How the data were processed

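RNA-seq was analysed in 4 libraries, grouped by their titles, with the library titled a duplicate taken as replicate 2. As deposited by the authors, the values are a normalized expression signal per gene, which Genomatix computed from poly(A) reads on mm9. The aligner, the formula and the handling of repeated reads are not given in the sources used here. Values and alignment positions of each library were used, while the score column deposited with the alignments was not used. The authors' shorter tables and ratio tables, which hold their own comparisons, were not used. The sources name more than 1 vehicle, so the text says solvent.

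Genes at 0.001 or more in at least 2 libraries were tested with limma 3.58.1 (R 4.3.3, lmFit and eBayes with trend) on log2(value + 0.005). A fold change on this scale understates the change of low genes. Replicate numbers were taken to pair the libraries, because the column headers of the authors name replicate 1 of each condition as old and because the deviations from the group means correlated at 0.764 between libraries of the same number. The main fit has no block. Alignments on exons and introns of GENCODE M1 genes were counted with Python 3.11.15, and genes with at least 10 positions in at least 2 libraries entered limma-voom. The limma fit on values was tested on simulated data, with a replicate offset for each gene and 1 noise level for all genes. The outcome of that simulation is not given here. Precision is limited by 2 libraries a group, and the values themselves carry no depth.

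The members and lists were chosen with earlier results of these data known. Genes named from a list were the 2 largest and the 2 smallest log2 fold changes without the block at a mean value of at least 0.01, and other genes counted among a few calls were named after their values were seen. A planned alignment of proteins was replaced by coding sequences, aligned with Biopython 1.88. Kat14, Ing4, Msl1 and Brwd3 were not analysed here.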

Additional observations from a re-analysis of the deposited data

How the results depend on the processing

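With 2 libraries a group, the calls depended on the replicate block. Over all genes, 1 was higher and 0 lower without it, and 4277 were higher and 1314 lower with the replicate block. The splits with the block were 3346 higher and 2313 lower after median-ratio scaling, 2936 and 2961 with quantile normalization, 4216 and 1220 at a pseudocount of 0.001, 3790 and 1158 at 0.02, 4989 and 1570 without the filter, and 2751 and 1091 at a mean value of at least 0.01. Without the block, 466 genes were higher and 65 lower at a mean value of at least 0.01, and 0 were higher under the pseudocounts of 0.001 and 0.02, no filter, both scalings, eBayes without trend and values under 0.001 set to 0.001 (the full tables with the minimum of the shorter ones). Distinct positions gave 2517 higher and 851 lower (5122 and 2349 with the block), all alignments 379 and 16 (4932 and 2031 with the block), and introns, an alternative chosen after seeing the data, 1591 and 417 (4231 and 2011 with the block). With each library left out, 72 to 414 genes were higher and 12 to 135 lower, and such a fit leaves a lone library that is assumed to vary like the others and carries the offset between replicates.

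Of the members, 0 were called lower without the block and 1 with it, also at both pseudocounts, without the filter and at the mean of 0.01. Genes called lower with the block numbered 2313 of 20283 under median-ratio scaling and 2961 of 20336 under quantile normalization. They numbered 2349 of 17944 on distinct positions, 2031 of 18288 on all alignments and 2011 of 14980 in introns. Without the block, distinct positions gave 851 of 17944 and introns 417 of 14980. The count of members was 3 under either scaling with the block and 3 on all alignments with the block. It was 1 on distinct positions (4 with the block) and 1 in introns (4 with the block). It was 0 to 1 with each library left out. Kat2b stayed lower under every alternative run, between -2.41 and -0.68. Brd2 turned to -0.16 after median-ratio scaling, and Brd3 to -0.18 after that scaling, -0.013 after quantile normalization, -0.016 on distinct positions (-0.0042 with the block), -0.016 on all alignments (-0.011 with the block) and -0.21 in introns (-0.21 with the block). The block left the value of each scaling as it was. With each library left out, values that turned sign ran from -0.97 to 0.10 for Ep300, -0.31 to 0.084 for Kat2a, -0.41 to 0.56 for Brd2 (-0.31 without MS-275 replicate 2), -0.35 to 0.45 for Brd3 (-0.19 without solvent replicate 1) and -0.73 to 2.22 for Hdac1 (-0.37 without solvent replicate 1). The cause of these changes was not tested.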
